A study of Mus musculus with 12 samples.

Results

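The genes described here belong to the unfolded protein response of the endoplasmic reticulum (ER) and to the integrated stress response. They were taken by name from a deposited table of 43698 gene rows, in which 35 rows, 1 for each listed gene, were found. The list holds 3 ER stress sensors (Ern1, Eif2ak3 and Atf6), 2 transcription factors (Xbp1 and Atf4), 20 genes of protein folding and ER-associated degradation (ERAD), and 10 genes known as targets of ATF4. The question put to the data was whether folding and degradation genes moved with ATF4 targets across treatments of a mouse tumour.

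RNA was sequenced in 12 libraries of subcutaneous MC38 tumours, a colon carcinoma line of the mouse, grown in C57BL/6J hosts inoculated in the left flank at 8 weeks of age. Treatment began on day 9, was repeated every 3 days, and tumours were taken on day 20. There were 6 groups with 2 libraries each, and whether both libraries of each group stem from different animals is not stated in the labels, so the p-values below measure only the spread between these libraries, which may be technical. The DOX group received 14 µg (0.56 mg/kg) of DOX into the peritoneum. The DPD group received 14 µg (0.56 mg/kg) of DPD by the same route, and DPD is read here as the prodrug of DOX that the series title names. The RP group received 20 µg (0.8 mg/kg) of Ru-PD-L1, a conjugate of a catalyst with an antibody against PD-L1, into the peritoneum. The R+X and R+D groups are read as the conjugate followed after 6 h by DOX or DPD, 14 µg beside the tumour, so the route of the drug changes together with the presence of the conjugate. The dose of the conjugate in R+X and R+D is not stated. The Ctrl group received PBS. The comparison with Ctrl is shared by all 5 treatments, and its 2 libraries enter every value given against it.

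Library totals ran between 46547114 and 56462259 counts, and values below are CPM, counts relative to the library total after TMM scaling. Defining markers of epithelium were near absent in tumours labelled as carcinoma: Cdx2 was at 0 in every library, the median of 9 of 10 markers was under 1 CPM, and Cdh1 stood at 9.90 to 18.1 CPM. The libraries also differed in how their values leaned with transcript length. Across 16252 genes, the Spearman correlation of a gene's deviation from its own mean with its longest transcript was -0.446 in DOX replicate 1, -0.374 in DPD replicate 1, and -0.289 and -0.497 in the Ctrl libraries, and between 0.0528 and 0.404 in the other 8. This bears on the list, because the median transcript was 2021 nt for the ATF4 targets, 2972.5 nt for folding and ERAD genes, 6946 nt for the sensors and 3133 nt for all genes with a length. Skeletal muscle markers summed to 123 to 323 CPM in RP, 40.4 to 423 CPM in R+D, and 18.3 to 39.7 CPM in the other libraries. Red blood cell markers summed to 348 to 368 CPM in DOX, 25.3 to 124 CPM in DPD, 51.0 to 87.7 CPM in RP, 37.2 to 55.4 CPM in R+X, 21.7 to 32.6 CPM in R+D and 223.3 to 260.4 CPM in Ctrl. In whole tumours, fewer cells of a type and less RNA per cell cannot be told apart.

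The ER folds secreted and membrane proteins, and 3 sensors in its membrane report when unfolded protein builds up. IRE1 (gene Ern1) splices the Xbp1 message, ATF6 is cut and released as a transcription factor, and PERK (gene Eif2ak3) phosphorylates eIF2alpha, which slows translation but favours that of ATF4. XBP1 and ATF6 induce chaperones and ERAD genes, whereas ATF4 induces genes of amino acid supply and of stress-dependent cell death and is reached also by kinases outside the ER. Splicing, cleavage and phosphorylation are not visible in gene counts, so the values below are transcript levels and not the activity of the sensors.

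Upstream sequences of 6 members are shown, picked because they hold a match to elements through which ATF6, XBP1 and ATF4 are known to act. Each is the stretch of 250 bases before the RefSeq start site in GRCm38.p6, written 5′ to 3′ in the direction of the gene, and capitals mark the motif matches. Hspa5 (chr2:34771840-34772089, plus strand) and Hsp90b1 (chr10:86705445-86705694, minus strand) encode the ER chaperones BiP and GRP94, and their capitals are ER stress elements (ERSE).
Hspa5: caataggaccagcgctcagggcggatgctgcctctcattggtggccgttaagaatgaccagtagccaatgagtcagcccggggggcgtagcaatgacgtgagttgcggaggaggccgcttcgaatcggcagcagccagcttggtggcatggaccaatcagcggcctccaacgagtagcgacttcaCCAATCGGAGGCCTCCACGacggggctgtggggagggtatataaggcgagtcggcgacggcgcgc
Hsp90b1: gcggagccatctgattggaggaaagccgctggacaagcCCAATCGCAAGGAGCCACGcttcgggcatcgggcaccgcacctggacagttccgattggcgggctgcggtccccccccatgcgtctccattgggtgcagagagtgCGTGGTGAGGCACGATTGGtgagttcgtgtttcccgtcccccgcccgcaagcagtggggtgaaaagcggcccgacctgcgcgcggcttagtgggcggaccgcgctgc
Herpud1 (chr8:94386179-94386428, plus strand), a membrane component of the ERAD machinery, holds an ATF4-type element, called CARE here, and an ERSE-II.
Herpud1: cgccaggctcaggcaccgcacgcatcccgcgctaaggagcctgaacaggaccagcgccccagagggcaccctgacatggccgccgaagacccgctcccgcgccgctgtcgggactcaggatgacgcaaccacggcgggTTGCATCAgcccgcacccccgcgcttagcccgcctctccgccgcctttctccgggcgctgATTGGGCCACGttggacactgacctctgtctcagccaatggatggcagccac
Asns (chr6:7693210-7693459, minus strand), Chac1 (chr2:119350992-119351241, plus strand) and Atf3 (chr1:191183334-191183583, minus strand) encode asparagine synthetase, a glutathione-degrading enzyme and a stress-induced transcription factor, and each holds a CARE.
Asns: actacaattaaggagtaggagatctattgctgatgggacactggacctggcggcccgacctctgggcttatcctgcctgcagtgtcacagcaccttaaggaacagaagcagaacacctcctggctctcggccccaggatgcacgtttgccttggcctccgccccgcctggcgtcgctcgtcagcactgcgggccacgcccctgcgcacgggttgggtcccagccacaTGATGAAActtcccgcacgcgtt
Chac1: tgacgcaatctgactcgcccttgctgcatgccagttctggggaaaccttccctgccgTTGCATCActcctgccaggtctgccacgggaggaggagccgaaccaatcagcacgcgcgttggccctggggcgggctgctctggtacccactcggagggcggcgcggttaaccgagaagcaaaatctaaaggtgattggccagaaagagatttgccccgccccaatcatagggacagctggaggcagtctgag
Atf3: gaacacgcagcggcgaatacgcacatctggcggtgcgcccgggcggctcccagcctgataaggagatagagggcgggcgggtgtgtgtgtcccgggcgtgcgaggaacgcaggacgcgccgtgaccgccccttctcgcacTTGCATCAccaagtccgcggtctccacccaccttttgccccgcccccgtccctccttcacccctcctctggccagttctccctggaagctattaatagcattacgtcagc

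Windows were found for 31 of the 35 members, and both strands were searched. The ERSE (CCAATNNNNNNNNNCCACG) was present in 8 of 17 folding and ERAD genes with a window, namely Hspa5, Hsp90b1, Calr, Canx, Pdia6, Dnajc3, Creld2 and Syvn1, and in 0 of 10 ATF4 targets. Among all 32851 mouse windows of this length 0.113% held it. Hsp90b1 had 2 matches, at positions -212 to -194 and -107 to -89 relative to the start, and the match in Hspa5 lay at -65 to -47. The ERSE-II (ATTGG, then N, then CCACG), present in 0.0304% of all windows, was found in Herpud1 alone among the members. The CARE (TGATGNAA), present in 3.45% of all windows, was found in 3 of 10 ATF4 targets and in Herpud1, and the XBP1-type core TGACGTGG, present in 0.563% of all windows, in 0 members. A match describes letters in this window and not binding.

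**Figure D1:**
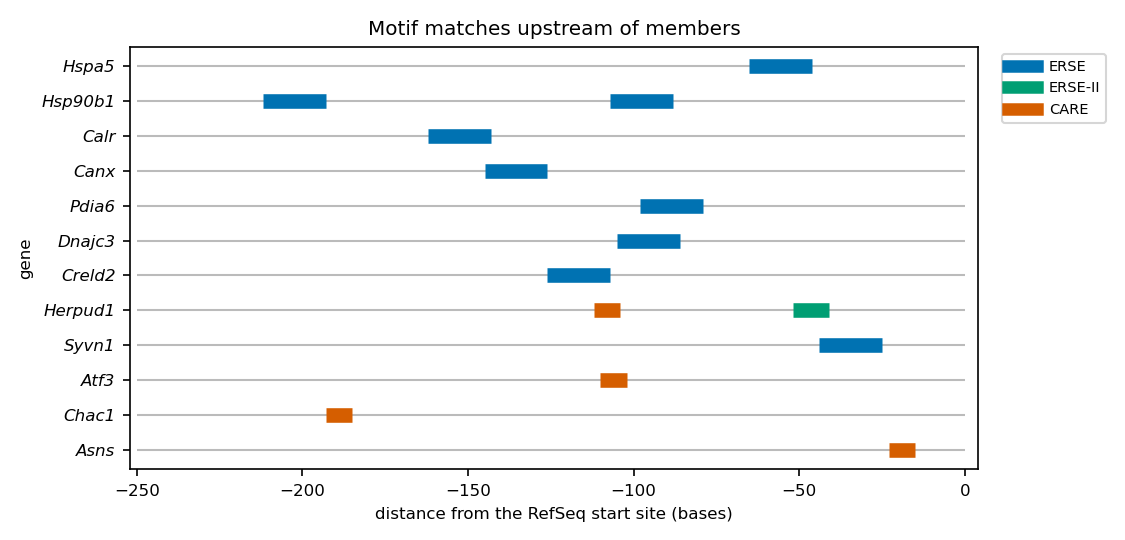
Motif matches in the 250 bases before the RefSeq start site of the 12 members that hold one (horizontal axis, distance from the start in bases; coloured blocks, ERSE, ERSE-II and CARE matches on either strand; 1 gene a line). ERSE blocks lie only in folding and ERAD genes, CARE blocks in 3 ATF4 targets and Herpud1.

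Per kilobase of the longest transcript, median levels over the 12 libraries were highest for Calr (359 CPM per kb), Atf4 (294 CPM per kb), Phgdh (261 CPM per kb), Hsp90b1 (218.9 CPM per kb) and Hspa5 (207 CPM per kb). They were lowest for the sensors, at 2.52 CPM per kb for Ern1, 7.10 CPM per kb for Atf6 and 7.17 CPM per kb for Eif2ak3. Hsp90b1 varied little between libraries, with 692 and 787 CPM in DOX, 708 and 751 in DPD, 710.3 and 698 in RP, 695 and 735 in R+X, 678 and 739 in R+D and 702 and 690.3 in Ctrl. Its highest library was 1.16 times its lowest, a ratio smaller than that of all but 0.343% of tested genes, and every treated group overlapped Ctrl except DPD, whose libraries were both higher. Stress regulators varied most among the ATF4 targets: the ratio of highest to lowest was 4.40 for Chac1, 2.65 for Ddit3 (CHOP, a transcription factor of stress-induced death) and 2.60 for Trib3 (a pseudokinase that restrains ATF4 signalling). Psat1, an enzyme of serine synthesis, varied by 1.25 times. Ern1 had the widest ratio in the list, 5.29.

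**Figure D2:**
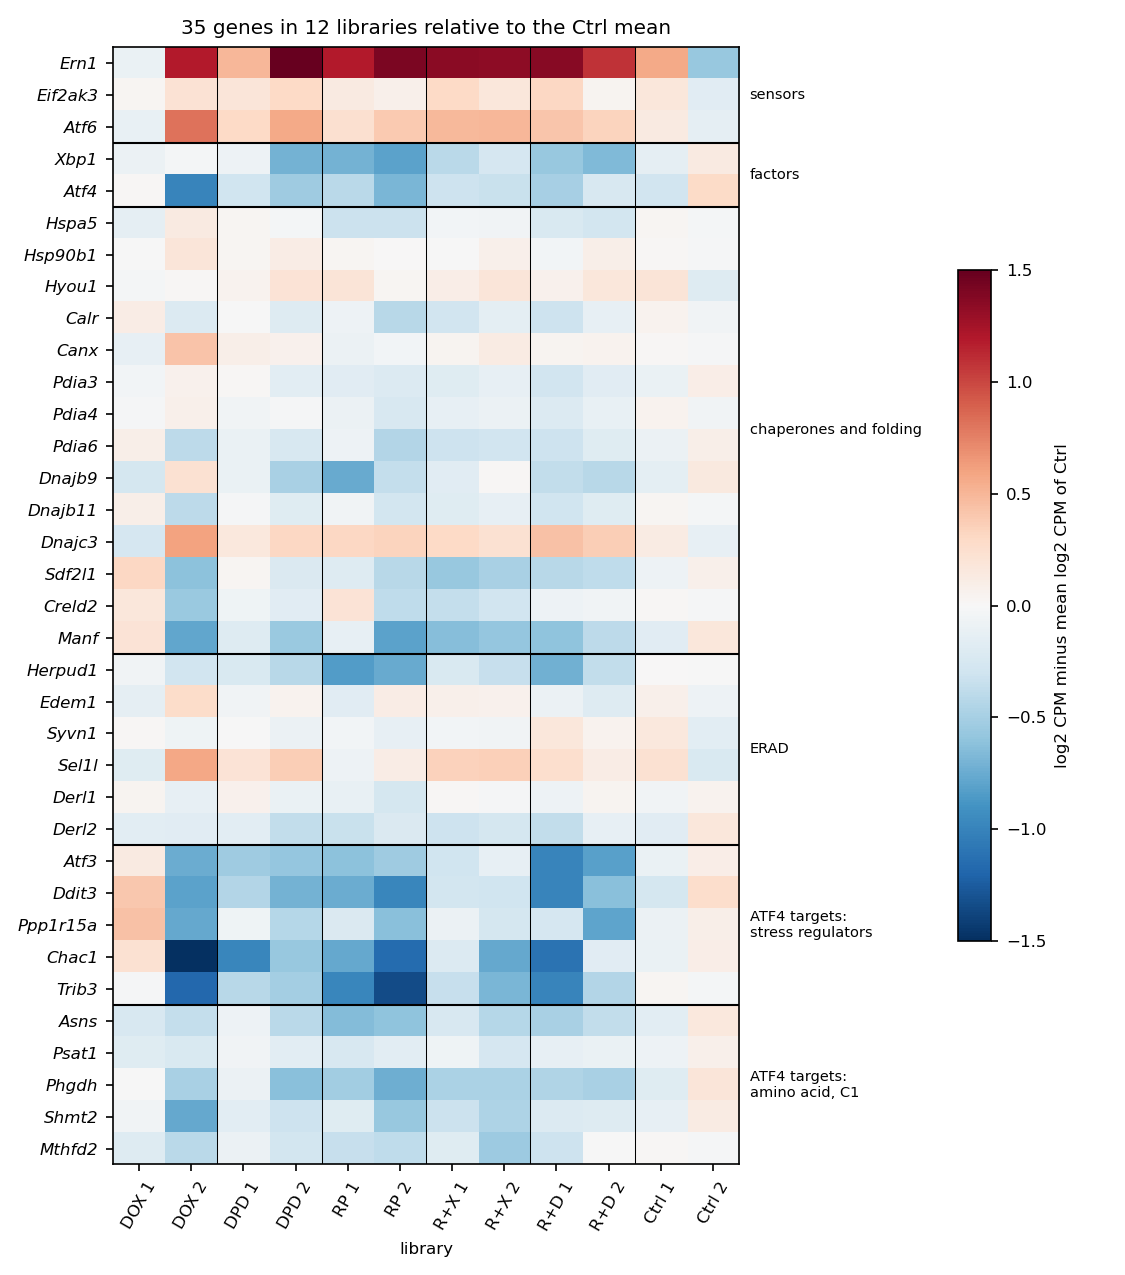
Each of the 35 genes (rows, by role) in each library (columns), as log2(CPM + 0.5) minus the mean of the 2 Ctrl libraries; red is higher and blue lower than Ctrl, and the colour scale ends at 1.5 either way. ATF4 targets and Xbp1 are blue in both RP libraries, most ATF4 targets are blue in DOX replicate 2, and Hspa5, Hsp90b1 and Canx are pale in most columns.

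With the conjugate alone, the 10 listed ATF4 targets stood lower than in control tumours as a group, and the 20 listed folding and ERAD genes less so. Among other ATF4 targets and other ER folding genes, given below, this order was reversed. The median log2 fold change of RP over Ctrl was -0.61 for the 10 ATF4 targets, -0.18 for the 20 folding and ERAD genes, 0.32 for the 3 sensors and 0.06 for all 19525 genes tested. The median of folding and ERAD genes was -0.29 without RP replicate 1 and -0.11 without RP replicate 2, and that of ATF4 targets lay between -0.74 and -0.46 with any 1 library left out. All 10 ATF4 targets and 11 of 20 folding and ERAD genes were lower in both RP libraries than in both Ctrl libraries. Over the list this held for 23 of 35 members, against 27.1% of all tested genes, and 3 members (Ern1, Atf6 and Dnajc3) were higher without overlap, against 32.3% of all genes. In edgeR's quasi-likelihood test with Benjamini-Hochberg adjustment over all genes, 0 of 35 members passed an adjusted p of 0.05, and 0.0154% of all genes did. At an unadjusted p under 0.05, 9 members were lower (9.38% of all genes) and 1 was higher (12% of all genes).

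Herpud1 had the smallest p of the list. It had 132 and 140.4 CPM in RP, against 238 and 235 CPM in Ctrl, and the RP libraries were the 2 lowest of the 12. The log2 fold change was -0.79 (SE 0.16, edgeR adjusted p = 0.127). Xbp1, whose message IRE1 splices, had 100.3 and 94.1 CPM in RP, against 149.7 and 181 CPM in Ctrl, a log2 fold change of -0.77 (SE 0.20, edgeR adjusted p = 0.135). Only DPD replicate 2, at 100.3 CPM, was as low outside RP. Atf4 itself had 563 and 460.1 CPM in RP, against 607 and 909 CPM in Ctrl, with no overlap and a log2 fold change of -0.57 (SE 0.30, edgeR adjusted p = 0.284).

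Among the ATF4 targets, Trib3 had 93.4 and 72.3 CPM in RP, against 188 and 180.2 CPM in Ctrl. Both RP libraries lay below both Ctrl libraries by more than the spread within either group, and the log2 fold change was -1.15 (SE 0.33, edgeR adjusted p = 0.15). Ddit3 had 41.9 and 35.4 CPM in RP, against 58.4 and 84.5 CPM in Ctrl, a log2 fold change of -0.89 (SE 0.34, edgeR adjusted p = 0.19). Chac1 had 41.9 and 32.1 CPM in RP, against 67.0 and 77.2 CPM in Ctrl, a log2 fold change of -0.96 (SE 0.54, edgeR adjusted p = 0.311). Atf3 had 17.2 and 18.2 CPM in RP, against 24.8 and 28.7 CPM in Ctrl. The groups did not overlap for these genes, and for Atf3 the log2 fold change was -0.59 (SE 0.25, edgeR adjusted p = 0.213). Ppp1r15a (GADD34, which directs dephosphorylation of eIF2alpha) had 35.4 and 26.5 CPM in RP, against 38.6 and 43.9 CPM in Ctrl.

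All 5 enzymes of amino acid and one-carbon supply were lower in both RP libraries than in both Ctrl libraries. Asns had 154 and 159.6 CPM in RP, against 217.7 and 271 CPM in Ctrl, and the RP libraries were its 2 lowest of the 12. The log2 fold change was -0.64 (SE 0.17, edgeR adjusted p = 0.135). Phgdh, the first enzyme of serine synthesis, had 478 and 412 CPM in RP, against 603 and 778 CPM in Ctrl, a log2 fold change of -0.63 (SE 0.22, edgeR adjusted p = 0.173). Psat1, Shmt2 (mitochondrial serine hydroxymethyltransferase) and Mthfd2 (a mitochondrial folate enzyme) had log2 fold changes of -0.21, -0.37 and -0.37. The median over the 5 enzymes was -0.37, and over the 5 stress regulators -0.89, and the difference between these lists was not tested.

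Of the chaperones, Hspa5 had 631 and 627 CPM in RP, against 805 and 769.6 CPM in Ctrl. The RP libraries were its 2 lowest of the 12, and the log2 fold change was -0.32 (SE 0.13, edgeR adjusted p = 0.209). Calr (calreticulin) had 817 and 644 CPM in RP, against 892 and 834 CPM in Ctrl, without overlap and with a log2 fold change of -0.24 (SE 0.17, edgeR adjusted p = 0.406). Hsp90b1 differed by 0.02 on the log2 scale, with a 95% interval of -0.27 to 0.31, and Hyou1 by 0.10. Dnajb9, a BiP co-chaperone that is a known XBP1 target, had 17.4 and 23.1 CPM in RP, against 26.8 and 32.9 CPM in Ctrl, a log2 fold change of -0.56 (SE 0.23, edgeR adjusted p = 0.204). Dnajc3, a co-chaperone known also as an inhibitor of PERK, was higher, at 73.6 and 75.0 CPM in RP, against 64.7 and 54.1 CPM in Ctrl. Sel1l, the ERAD adaptor of the ligase that Syvn1 encodes, had 73.5 and 83.7 CPM in RP, against 91.0 and 66.0 CPM in Ctrl, and the groups overlapped. The remaining folding and ERAD genes had log2 fold changes between -0.43 (Manf) and -0.03 (Edem1).

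As measured, the sensors had higher mean levels in RP than in Ctrl. Ern1 had 17.5 and 20.6 CPM in RP, against 11.2 and 4.85 CPM in Ctrl, a log2 fold change of 1.25 (SE 0.51, edgeR adjusted p = 0.205). The Ctrl libraries stood further apart than the RP libraries, and both lay below both of them. Atf6 had 47.1 and 52.5 CPM in RP, against 43.7 and 36.1 CPM in Ctrl, and Eif2ak3 had 31.5 and 30.3 CPM in RP, against 32.3 and 25.4 CPM in Ctrl, with overlap. The sensors have long transcripts and both Ctrl libraries leaned to short ones. After a trend with length and GC content was removed from each library, the median of the sensors relative to the Ctrl mean was -0.06 and -0.09 in the RP libraries, so its direction turned. The log2 fold change of Ern1 was 0.87 after that removal, and 0.30 with the length correlation as a covariate.

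**Figure D3:**
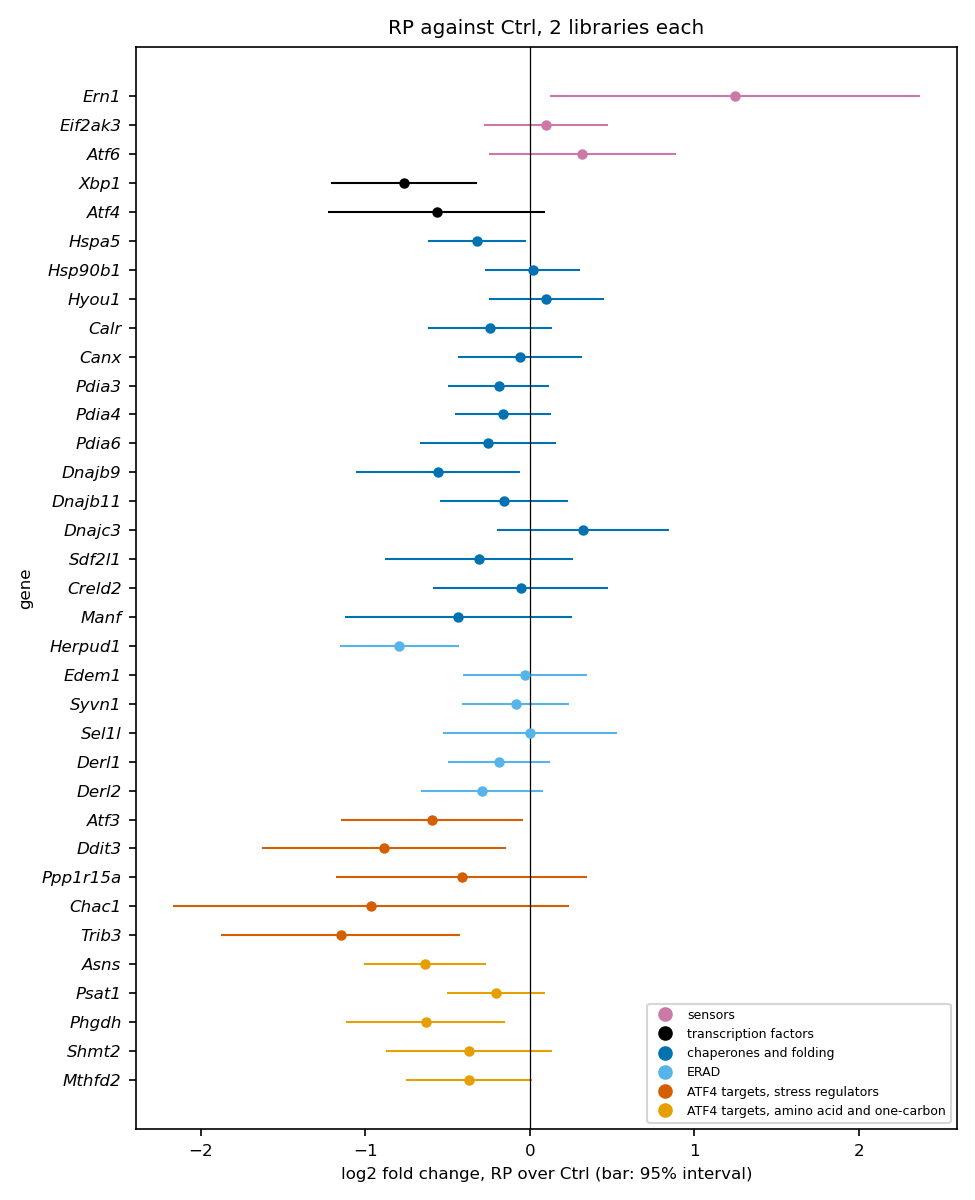
Log2 fold change of RP over Ctrl (horizontal axis) for the 35 genes (rows, coloured by role) with 95% intervals from edgeR's quasi-likelihood fit, 2 libraries each. All 10 ATF4 targets lie left of 0, from -1.15 (Trib3) to -0.21 (Psat1), and the 3 sensors lie right of it as measured, although their median turned negative once the length and GC trend was removed.

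Whether members of this comparison passed differed with the tool, the libraries fitted and the removal of a length trend. DESeq2's Wald test on the same 12 libraries called 4 members lower, Herpud1 (adjusted p = 0.00101), Asns (0.0140), Xbp1 (0.0148) and Trib3 (0.0163), where it called 1.53% of genes lower. A fit of the RP and Ctrl libraries alone called 3, Trib3, Chac1 and Herpud1 (edgeR adjusted p = 0.0202, 0.0376 and 0.0470), with 0.69% of genes lower. After a loess trend on transcript length and GC content was removed, limma called Herpud1, Asns and Trib3 lower (adjusted p = 0.0386, 0.0486 and 0.0497), with 0.505% of genes lower. With the length correlation of each library as a covariate, the median was -0.25 for ATF4 targets and -0.06 for folding and ERAD genes, and 0 members passed. With the muscle marker score as a covariate the medians were -0.68 and -0.28, and 0 members passed. T cell markers summed to 53.0 to 60.6 CPM in RP, against 26.2 to 31.8 CPM in Ctrl, with the median of 10 of 12 above 1 CPM, and plasma cell markers, of a cell type rich in ER, to 135 CPM in both RP libraries, against 129 to 131 CPM in Ctrl, with 6 of 10 under 1 CPM. Endothelial markers summed to 123 to 168 CPM in RP, against 78.2 to 98.1 CPM in Ctrl, with 9 of 9 over 1 CPM, and neutrophil markers to 31.5 to 48.2 CPM in RP, against 50.8 CPM in both Ctrl libraries, with 4 of 8 under 1 CPM. The part of these cells in the result was not tested.

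Other genes of the same pathways, taken from lists that hold no member, gave 0 genes past the adjusted threshold in RP against Ctrl. Over all 19525 genes 8999 were lower in RP, and 9.38% were lower at an unadjusted p under 0.05. Of 23 other ER folding genes 18 were lower (median log2 fold change -0.37), 7 of them at an unadjusted p under 0.05, among them Txndc5 with 217.9 and 216 CPM in RP, against 287 and 299.5 CPM in Ctrl, and Ppib with 233 and 205 CPM, against 289 and 399.5 CPM. Of 30 genes of ER translocation and secretory transport 25 were lower (median -0.28), 8 at that p, among them Sec61a1, the channel subunit, with 203 and 205 CPM in RP, against 259 and 270.1 CPM in Ctrl. The 20 tested other ERAD genes had a median of -0.14 and the 15 genes of the eIF2 pathway one of -0.19. Of 29 tested further ATF4 targets 18 were lower and 11 higher, with a median of -0.08. Outside the members the order was thus reversed, with other ER folding genes (-0.37) lower than further ATF4 targets (-0.08). Atf5 had 495 and 382 CPM in RP, against 755 and 713 CPM in Ctrl, and Slc7a3 had 4.93 and 4.36 CPM in RP, against 2.92 and 3.20 CPM in Ctrl. The 18 aminoacyl-tRNA synthetases, many of them known ATF4 targets, had a median of -0.06, and Wars, which interferon also induces, was higher at 238 and 225.1 CPM in RP, against 160.3 and 159.5 CPM in Ctrl. The 12 mitochondrial stress genes had a median of -0.16. Over all genes with a length, the fold change of RP over Ctrl correlated with transcript length (Spearman's rho 0.345). The part of length in the values of these lists was not tested.

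With conjugate plus DPD, all 10 ATF4 targets again stood lower than in Ctrl on average. In R+D over Ctrl the median log2 fold change was -0.49 for ATF4 targets, -0.19 for folding and ERAD genes, 0.38 for sensors and 0.04 for all genes. With the length and GC trend removed, the sensors' median relative to the Ctrl mean was 0.18 and 0.00 in the R+D libraries, against 0.42 and 0.34 before. Without overlap 22 members were lower (27.4% of all genes) and 4 were higher, namely Ern1, Atf6, Canx and Dnajc3 (30.8%). In edgeR 0 members passed and 0% of genes did, while 5 members were lower at an unadjusted p under 0.05 (6.66% of genes) and Ern1 was higher (8.69%). Atf3 had the smallest p, with 13.1 and 15.0 CPM in R+D, against 24.8 and 28.7 CPM in Ctrl. The R+D libraries were its 2 lowest of the 12, and the log2 fold change was -0.93 (SE 0.25, edgeR adjusted p = 0.314). DESeq2 called Atf3 alone of the members (adjusted p = 0.0493), with 0.255% of genes lower. Herpud1 had 144 and 184 CPM in R+D (log2 fold change -0.53), Xbp1 111 and 104 CPM (-0.62), Asns 174 and 189 CPM (-0.43) and Ddit3 35.1 and 45.2 CPM (-0.83), all below both Ctrl libraries. The amino acid and one-carbon enzymes alone gave a median of -0.21, and with the length correlation as a covariate the median of the ATF4 targets was -0.07. Muscle markers summed to 40.4 and 423 CPM in the R+D libraries, and with their score as a covariate the median of ATF4 targets was -0.50.

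In R+X over Ctrl the median log2 fold change was -0.34 for ATF4 targets, -0.09 for folding and ERAD genes and 0.49 for sensors, beside 0.01 for all genes. The median was -0.22 for ATF4 targets without Ctrl replicate 2 and -0.16 for folding and ERAD genes without R+X replicate 2. Without overlap 21 members were lower (27.5% of all genes) and 6 higher (28.5%), the higher ones Ern1, Eif2ak3, Atf6, Canx, Dnajc3 and Sel1l. In edgeR 0 members passed where 0% of genes did, and Ern1 and Phgdh had an unadjusted p under 0.05 (6% of genes). Ern1 had 19.6 and 19.6 CPM in R+X, against 11.2 and 4.85 CPM in Ctrl, a log2 fold change of 1.29 (SE 0.51, edgeR adjusted p = 0.575). With the length and GC trend removed, the sensors' median relative to the Ctrl mean was 0.19 and 0.19 in the R+X libraries, against 0.48 and 0.50 before. Phgdh had 493 and 494 CPM in R+X, against 603 and 778 CPM in Ctrl, without overlap. The small folding factors Sdf2l1 and Manf had 18.2 and 19.3 CPM and 82.5 and 86.0 CPM in R+X, against 25.8 and 28.6 CPM and 114 and 145 CPM in Ctrl. With the length correlation as a covariate the median of the ATF4 targets was 0.04, so its sign is not settled for R+X. Manf stood at -0.62 as measured and at 0.07 with that covariate.

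DOX alone gave 2 libraries that disagreed. Chac1 had 84.6 CPM in DOX replicate 1 and 19.2 CPM in DOX replicate 2, the highest and the lowest value of the 12 libraries, against 67.0 and 77.2 CPM in Ctrl. All 10 ATF4 targets were higher in DOX replicate 1, by a median of 1.75 times, as was Atf4 (753 and 373 CPM, the second the lowest of all). Of the folding and ERAD genes, 10 of 20 were higher in DOX replicate 1, with a median ratio of 0.992, and all 3 sensors were lower in it (median ratio 0.523). That median does not mean that folding and ERAD genes agreed, because their ratios ran both ways, from 1.985 for Manf to 0.550 for Dnajc3. The lean with transcript length had opposite signs in these libraries, -0.446 and 0.345, and its part in the difference was not tested. Against Ctrl the median log2 fold change of DOX was -0.27 for ATF4 targets, -0.77 without DOX replicate 1, -0.01 without DOX replicate 2 and -0.14 without Ctrl replicate 2, beside -0.02 for folding and ERAD genes. Without overlap 4 members were lower, Herpud1, Asns, Psat1 and Mthfd2 (9.43% of all genes), and 0 higher (8.29%). In edgeR 0 members passed where 0% of genes did, and 0 had an unadjusted p under 0.05 (2.08% of genes). Asns had 205.5 and 189 CPM in DOX, against 217.7 and 271 CPM in Ctrl, a log2 fold change of -0.31 (SE 0.17, edgeR adjusted p = 1).

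DPD alone was lower than Ctrl in ATF4 targets by a median of -0.29 on the log2 scale, and in folding and ERAD genes by -0.07, with 0.01 for all genes. The median of ATF4 targets was -0.17 without Ctrl replicate 2, and it was -0.47 and -0.13 when DPD replicate 1 or 2 was left out. That of folding and ERAD genes was -0.14 without DPD replicate 1 and -0.01 without DPD replicate 2. The lean with transcript length had opposite signs in DPD replicates 1 and 2, -0.374 and 0.404. With the length and GC trend removed, the median of ATF4 targets relative to the Ctrl mean was -0.09 and -0.31 in these libraries, against -0.12 and -0.47 before. The part of length in the difference from Ctrl was not tested. Without overlap 11 members were lower (17.6% of all genes) and 5 higher, Eif2ak3, Atf6, Hsp90b1, Canx and Dnajc3 (20.4%). In edgeR 0 members passed where 0% of genes did, and Atf3 and Ern1 had an unadjusted p under 0.05 (4.02% of genes). Atf3 had 18.3 and 17.7 CPM in DPD, against 24.8 and 28.7 CPM in Ctrl, a log2 fold change of -0.57 (SE 0.25, edgeR adjusted p = 0.725). Ddit3 had 51.5 and 42.9 CPM in DPD, against 58.4 and 84.5 CPM in Ctrl, and Chac1 36.1 and 48.2 CPM, against 67.0 and 77.2 CPM, both without overlap. Xbp1 differed between the DPD libraries, with 156 CPM in replicate 1 and 100.3 CPM in replicate 2, and overlapped Ctrl.

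**Figure D4:**
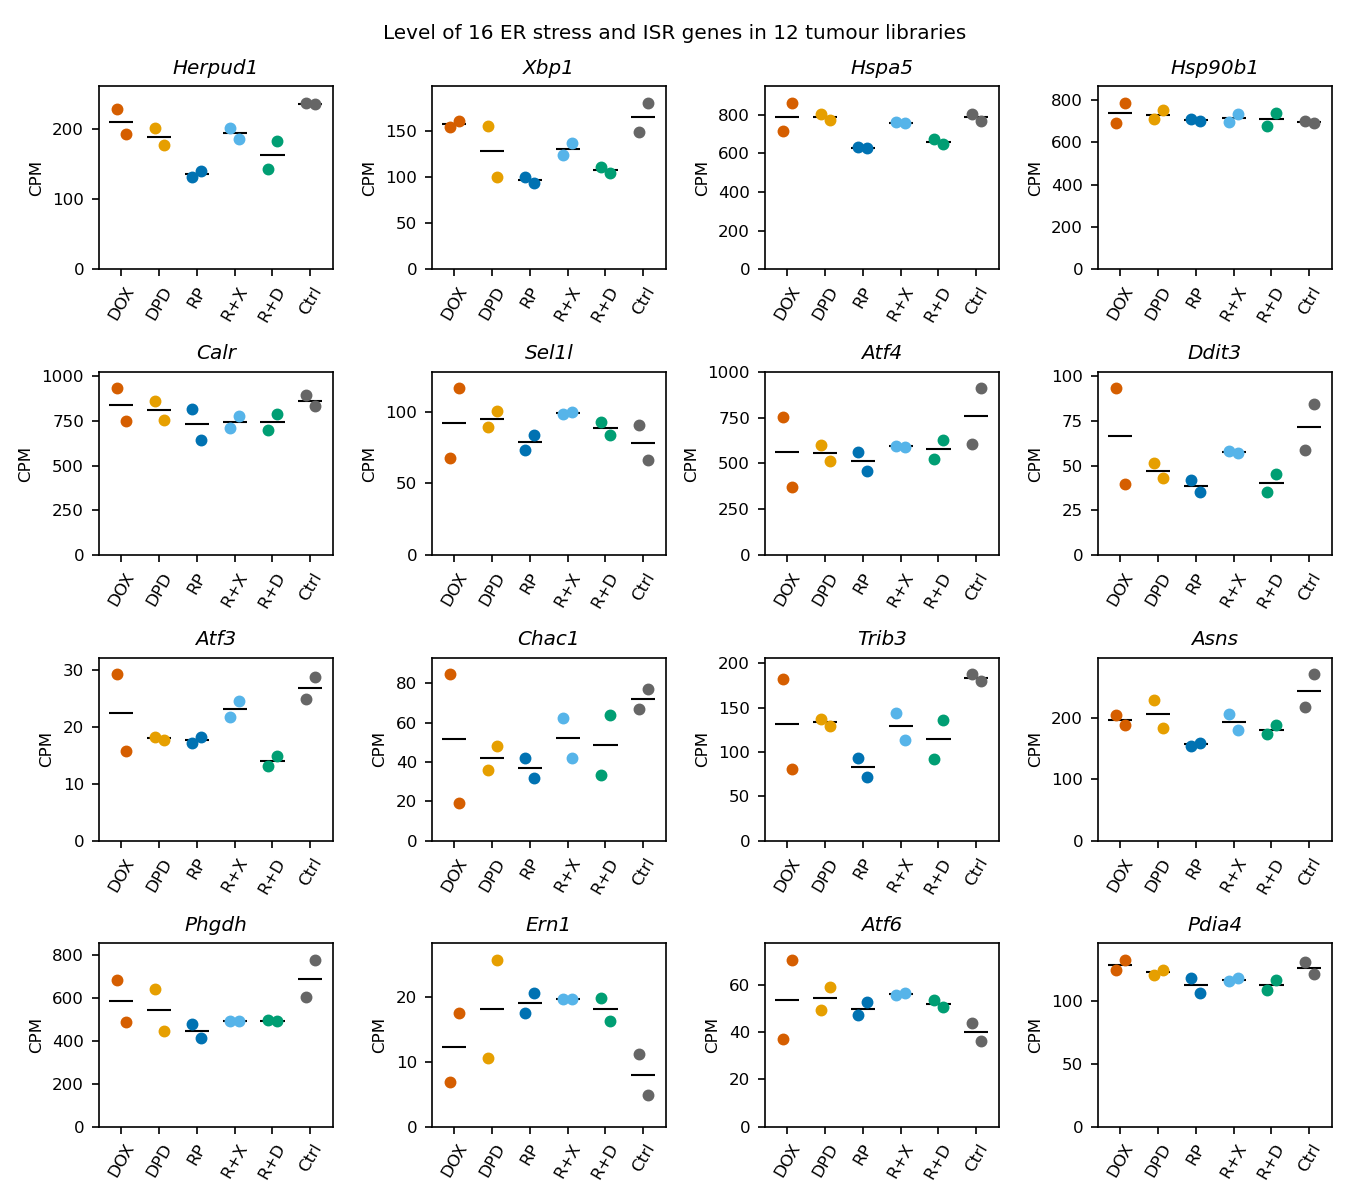
CPM in each library (points, 2 a group; black line, group mean) of the 13 members followed in every comparison and of Ern1, Atf6 and Pdia4, each panel from 0. Herpud1, Trib3 and Asns have their lowest group mean in RP, Chac1 spans its whole range within DOX, and Hsp90b1 is level across the 6 groups.

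The prodrug and its parent drug could be compared at the same dose in 2 pairs, and p-values were adjusted over all genes within each pair. In DPD over DOX the median log2 fold change was -0.04 for ATF4 targets and -0.03 for folding and ERAD genes, and 0 members passed in edgeR, where 0% of genes did, with 0 at an unadjusted p under 0.05 (4.29% of genes). Without overlap 2 members were higher, Hyou1 and Psat1 (13.4% of all genes), and 1 lower, Pdia4 (10.4%). Hspa5 differed by 0.00 with a 95% interval of -0.30 to 0.29, Ddit3 by -0.49 with -1.23 to 0.25, Asns by 0.07 with -0.30 to 0.43, and Chac1 by -0.30 with -1.49 to 0.90. The intervals of Ddit3 and Chac1 leave room for differences of more than 1 on the log2 scale, so similar action is not shown. The median of the ATF4 targets was 0.24 without DOX replicate 1 and -0.39 without DOX replicate 2, and it was 0.09 without DPD replicate 2, so its direction rests on single libraries.

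With the conjugate, R+D over R+X gave a median of -0.10 for ATF4 targets and -0.02 for folding and ERAD genes, with 0 members passing in edgeR where 0% of genes did and 1, Atf3, at an unadjusted p under 0.05 (5.27% of genes). The median of ATF4 targets was -0.27 without R+X replicate 2, -0.02 without R+X replicate 1 and 0.00 without R+D replicate 1, so it rests on single libraries. Without overlap 9 members were lower (23% of all genes) and 5 higher (22.5%). Atf3 had 13.1 and 15.0 CPM in R+D, against 21.6 and 24.6 CPM in R+X, a log2 fold change of -0.72 (SE 0.25, edgeR adjusted p = 0.91) with a 95% interval of -1.27 to -0.16. Ddit3 had 35.1 and 45.2 CPM in R+D, against 58.1 and 56.9 CPM in R+X, with an interval of -1.26 to 0.22. Hspa5 had 672 and 648 CPM in R+D, against 763 and 756 CPM in R+X, with an interval of -0.50 to 0.09. All 5 stress regulators were lower in R+D (median -0.33) and 4 of 5 amino acid and one-carbon enzymes higher (median 0.04), and that split was not tested.

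Most ATF4 targets had higher values with conjugate plus drug than with conjugate alone, 9 of 10 in R+X and 8 of 10 in R+D. In R+X over RP the median was 0.27 for ATF4 targets and 0.03 for folding and ERAD genes (0.15 without RP replicate 1), beside 0.00 for all genes, with 16 members higher without overlap (22.7% of all genes) and 2 lower (23.7%). Herpud1 had 202 and 186 CPM in R+X, against 132 and 140.4 CPM in RP, a log2 fold change of 0.51 (SE 0.16, edgeR adjusted p = 0.354). Xbp1 had 124 and 138 CPM in R+X, against 100.3 and 94.1 CPM in RP, also without overlap. In R+D over RP the median was 0.16 for ATF4 targets (0.09 without RP replicate 2) and 0.02 for folding and ERAD genes. Without overlap 12 members were higher (14.2% of all genes) and Atf3 was lower (13.6%), and the largest difference of any member was 0.46, for Trib3. Neither comparison had a member past the threshold in edgeR, and 0% of genes passed in both. At an unadjusted p under 0.05 there was 1 member in R+X over RP, Herpud1 (8.68% of genes), and 0 in R+D over RP (2.73%).

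Conjugate with drug was also set against the drug alone, which was given by another route. In R+X over DOX 2 members were higher without overlap, Ern1 and Hyou1 (15.3% of all genes), and 4 lower, Xbp1, Pdia3, Pdia4 and Derl2 (13.5%). In R+D over DPD 2 were higher without overlap, Dnajc3 and Syvn1 (14.5%), and 7 lower (11.8%). Again 0 members passed in edgeR in both, where 0% of genes did. At an unadjusted p under 0.05 there were 0 members in R+X over DOX (2.8% of genes) and 0 in R+D over DPD (2.3%). Hspa5 had 672 and 648 CPM in R+D, against 805 and 770.3 CPM in DPD, a log2 fold change of -0.25 (SE 0.13, edgeR adjusted p = 1). The median of ATF4 targets in R+X over DOX was -0.03, and 0.45 without DOX replicate 1 against -0.41 without DOX replicate 2, and 0.04 without R+X replicate 2 against -0.21 without R+X replicate 1. That of folding and ERAD genes was -0.09, and between -0.13 and -0.06 with any 1 library left out. In R+D over DPD the median was -0.16 for ATF4 targets and -0.11 for folding and ERAD genes. With any 1 library left out these ranged from -0.32 to -0.01 and from -0.12 to -0.04.

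Averaged over the 3 drug settings, the 6 libraries with conjugate against the 6 without gave a median of -0.28 for ATF4 targets, -0.12 for folding and ERAD genes and 0.03 for all genes. The median of ATF4 targets was -0.11 without DOX replicate 1 and -0.42 without DOX replicate 2. In edgeR 0 members passed, where 0.0154% of genes did, and at an unadjusted p under 0.05 there were 8 lower (9.47% of genes) and 1 higher (10.9%). Herpud1 (-0.38 (SE 0.09, edgeR adjusted p = 0.148)) and Xbp1 (-0.43 (SE 0.12, edgeR adjusted p = 0.159)) had the smallest p, and DESeq2 called these 2 members (adjusted p = 0.0110 and 0.0208), with 1.65% of genes lower. Pdia4, a protein disulfide isomerase, was the 1 member whose 6 libraries with conjugate all lay below the 6 without (0.0768% of all genes did so, and 0 members and 0.236% of genes were higher in this way). It had 119 and 107 CPM in RP, 116 and 118 in R+X and 109 and 117 in R+D, against 125 and 133 CPM in DOX, 121 and 125 in DPD and 131 and 121 in Ctrl. The difference was small, with a log2 fold change of -0.14 (SE 0.08, edgeR adjusted p = 0.303). Without DOX replicate 2 the count of members passing was 10, of which 8 were lower (7.67% of genes) and Ern1 and Dnajc3 higher (7.96%), so the count of 0 rests on that library. Transcripts were 6946 nt for Ern1 and 5141 nt for Dnajc3, and 969 nt (Ddit3) to 2247 nt (Manf) for the 8 lower members. All 6 libraries with conjugate leaned to long transcripts, and every library that leaned to short ones was without it. Over all 12 libraries the fold changes correlated with length (Spearman's rho 0.341). The drug's route also differed in R+X and R+D, and the part of length or route was not tested.

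Whether the conjugate shifted a gene differently with a drug than without was tested as an interaction. The drug's route changed together with the conjugate, so the term cannot tell the conjugate from the route. For DOX, 3 members had a positive term at an unadjusted p under 0.05 (0.958% of all genes), and they are named after their values were seen: Herpud1 (0.68 (SE 0.23, edgeR adjusted p = 0.998)), Asns (0.61 (SE 0.23, edgeR adjusted p = 0.998)) and Trib3 (1.13 (SE 0.46, edgeR adjusted p = 0.998)). For DPD this held for Herpud1 alone (0.58 (SE 0.23, edgeR adjusted p = 0.84), 1.01% of genes). A positive term means that the libraries with conjugate lay less far below those without it where the drug was given too. Neither interaction had a member past the threshold in edgeR, where 0% of genes passed. The term for DOX rests on DOX replicates that disagree, and its median over ATF4 targets, 0.50, was 0.22 without DOX replicate 2 and 0.89 without DOX replicate 1.

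By library, the median of the 10 ATF4 targets relative to the Ctrl mean was -0.01 and -0.76 in DOX, -0.12 and -0.47 in DPD, -0.57 and -0.62 in RP, -0.25 and -0.44 in R+X, -0.47 and -0.40 in R+D, and -0.10 and 0.10 in Ctrl. The 4 highest were DOX replicate 1, DPD replicate 1 and both Ctrl libraries, which are the 4 whose values leaned towards short transcripts. For the 20 folding and ERAD genes every library lay between -0.25 and 0.01. The pooled standard deviation within groups was 0.25 for the ATF4 targets and 0.07 for the folding and ERAD genes (6 degrees of freedom). After the trend with length and GC content was removed from each library, the medians of the ATF4 targets were -0.14 and -0.50 in DOX, -0.09 and -0.31 in DPD, -0.52 and -0.52 in RP, -0.11 and -0.28 in R+X, -0.30 and -0.36 in R+D, and -0.07 and 0.07 in Ctrl. The sensors then stood at -0.06 and -0.09 in RP, against 0.24 and 0.40 before it. In this form the RP libraries were the lowest for ATF4 targets, and their sensors lay between the 2 Ctrl libraries, at 0.11 and -0.11.

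**Figure D5:**
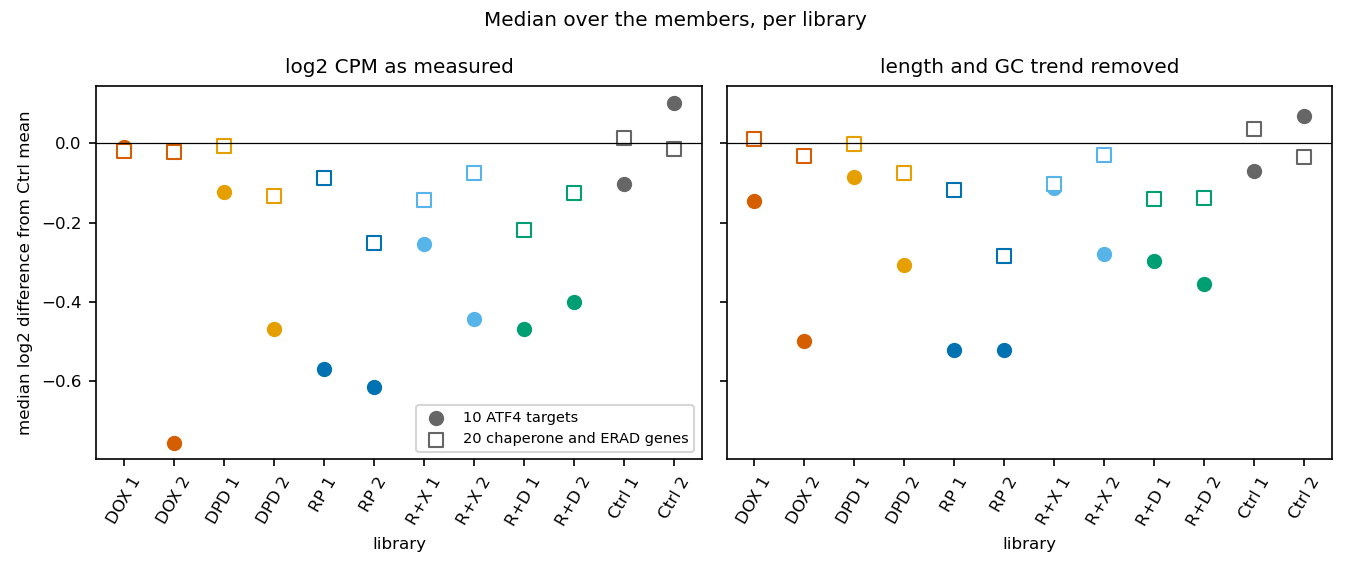
Median over the 10 ATF4 targets (filled circles) and over the 20 folding and ERAD genes (open squares) of log2(CPM + 0.5) minus the Ctrl mean, for each library (horizontal axis, coloured by group), as measured (left) and after a trend with transcript length and GC content was removed (right). In the left panel DOX replicate 2 is lowest at -0.76; in the right panel both RP libraries are lowest at -0.52.

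Across the 12 libraries 4 pairs of members were correlated on the log2 scale, with permutation p-values from 100000 resamples adjusted over the 4. The permutation ignores the 6 groups, so these p-values mix differences between groups with covariation within groups. Ddit3 and Trib3, both stress regulators, had Pearson's r = 0.84 (p = 0.00051, adjusted 0.00204) and Spearman's rho = 0.92 (p = 0.0001, adjusted 0.0004). Without DOX replicate 1 and Ctrl replicate 2 r was 0.81, and after subtraction of group means 0.87. Asns and Psat1 had r = 0.81 (p = 0.00141, adjusted 0.00282) and rho = 0.72 (p = 0.0106, adjusted 0.0207), 0.56 without RP replicate 1 and Ctrl replicate 2, and 0.89 after subtraction of group means. Hspa5 and Asns, a chaperone and an ATF4 target, had r = 0.62 (p = 0.0306, adjusted 0.0407) and rho = 0.69 (p = 0.0156, adjusted 0.0207), but r was 0.34 without the 2 RP libraries and -0.24 after subtraction of group means, so the relation rests on RP. Hspa5 and Hsp90b1, the 2 chaperones with ERSE upstream shown above, had r = 0.39 (p = 0.210, adjusted 0.210) and rho = 0.28 (p = 0.379, adjusted 0.379), 0.38 without the 2 RP libraries and 0.52 after subtraction of group means. The lean with transcript length is shared by genes of a library, and its part in these correlations was not tested.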

How the data were processed

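Bulk tumour RNA was measured in 12 libraries, and the 35 genes were compared between 6 groups of 2 libraries. Per the labels' protocols, TRIzol was used for extraction and NEBNext Ultra for library construction. Per the submitters' processing notes, HISAT2 2.1.0, StringTie 1.3.5, DESeq2 and the build GRCm38 were used. The tools' roles, the annotation, strandedness of counting and any gene filter were not given in the sources used here, so reads of overlapping genes cannot be told apart. The deposited values are whole-number counts per gene, not normalised by the authors, and the table and the 12 single-library files were identical.

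The counts were fitted with edgeR 4.0.16 (R 4.3.3): TMM scaling, filterByExpr by group, 1 coefficient a group over all 12 libraries, and the quasi-likelihood test with Benjamini-Hochberg adjustment over 19525 genes. There were 6 residual degrees of freedom and a common coefficient of variation of 0.257. Log values use log2(CPM + 0.5). All 35 genes passed the filter. Totals of 46547114 to 56462259 counts leave counting error small beside the spread between libraries. Alternatives were DESeq2 1.42.0, limma 3.58.1 (voom), other scaling, no filter, single groups, covariates and each library left out. The fit was also tested on simulated data.

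The genes named were a fixed set of 13 and, in each comparison, up to 6 of smallest p whose groups do not overlap. From the other pathway lists, up to 4 genes a list were chosen by the same rule in RP against Ctrl. Other members named with values were chosen after their values were seen. The members and lists were chosen with earlier results of these data known. Transcript lengths are those of the longest GENCODE M21 transcript, and promoter windows are from RefSeq (GRCm38.p6). The replicate numbers follow the order of deposit and pair nothing.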

Additional observations from a re-analysis of the deposited data

How the results depend on the processing

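Of 108 single-gene values recomputed under each alternative (2150 comparisons), 2124 kept their direction and their side of the threshold, 25 passed it only under the alternative, and 1 changed sign: Manf in R+X against Ctrl, 0.071 with the length correlation of the library as a covariate. The counts of members passing that differed from 0 were, with DESeq2, 4 in RP against Ctrl, 1 in R+D against Ctrl and 2 in the averaged conjugate comparison, and in RP against Ctrl 3 with only the groups compared and 3 with the length and GC trend removed. With limma-voom, RLE scaling, no filter and the muscle score as a covariate the count was 0 in every comparison. With the length correlation as a covariate, the median log2 fold change of ATF4 targets was -0.25 in RP against Ctrl, -0.073 in R+D against Ctrl, 0.044 in R+X against Ctrl and 0.24 in R+X against DOX, and that of folding and ERAD genes was -0.058 in RP and -0.022 in R+D against Ctrl. The amino acid and one-carbon genes alone gave -0.21 in R+D against Ctrl. With the muscle score the median of folding and ERAD genes was -0.28 in RP against Ctrl, -0.19 in the averaged comparison, -0.12 in R+D against R+X, 0.16 in R+X against RP and 0.13 in the interaction with DOX, and with the length and GC trend removed it was 0.14 in the interactions with DOX (0.136) and DPD (0.142). The cause of these shifts was not tested. The length and GC trend and the length covariate were chosen after seeing the data.

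With each library left out in turn, the median of ATF4 targets ranged from -0.77 to -0.012 in DOX against Ctrl, -0.39 to 0.24 in DPD against DOX, -0.41 to 0.45 in R+X against DOX and 0.22 to 0.89 in the interaction with DOX, with a DOX library left out at each end. That of folding and ERAD genes ranged from -0.29 to -0.11 in RP against Ctrl, 0.00942 to 0.15 in R+X against RP, -0.035 to 0.097 in R+D against RP, -0.097 to 0.011 in R+D against R+X, -0.0071 to 0.16 in the interaction with DOX and 0.0075 to 0.15 in that with DPD. The count of members passing in the averaged comparison ranged from 0 to 10, with 10 without DOX replicate 2. No paired analysis was possible because the labels number no replicates.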
